A study of Mus musculus with 2 samples.

Results

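The cells described here are keratinocytes of mouse buccal mucosa that carried much Krt4 and Krt13, the paired keratins of the suprabasal layers of lining mucosa, while 6 genes of terminal differentiation were near 0. They are called early cells. A cell was counted when, per 10000 of its UMIs (unique molecular identifiers, each 1 captured RNA molecule), Krt4 and Krt13 together reached 350, Cnfn, Lor, Sprr3, Crct1, Krt23 and Calm4 together stayed under 5, Krt16, S100a8 and Alox15 together under 10, and the mitotic genes Top2a, Cenpf, Ube2c, Ccnb1, Nusap1 and Prc1 together under 6. In library 1 the rule found 857 of 6907 cells (12.4%, exact binomial 95% interval 11.6 to 13.2). In library 2 it found 1163 of 8563 cells (13.6%, 12.9 to 14.3), which makes 2020 of 15470 cells, or 13.1%. These intervals, and those given for ratios, cover counting error only.

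The lining of the cheek is a stratified epithelium. Cells divide in a basal layer that is bound to the basement membrane by integrins and hemidesmosomes, and they carry Krt5 and Krt14. On leaving that layer they exchange these keratins for Krt4 and Krt13, strengthen their desmosomes, and later make the proteins and lipids of the cornified envelope, the cross-linked shell of the surface cells.

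The tissue was buccal mucosa pooled from 10 female C57BL/6 mice, 12 weeks old, and cells were sorted by a high surface level of CD104, the protein of Itgb4 (integrin β4). No genotype or treatment other than this is given in the labels. Droplet libraries were made on the 10x Chromium platform from 1 suspension divided into 2 technical replicates, so the animals cannot be told apart and there is 1 independent sample. The early cells were compared with late cells, which met the same Krt4 and Krt13 minimum and had 5 or more UMIs of the 6 cornified genes per 10000 (538 and 807 cells in libraries 1 and 2), and with basal cells, in which Krt4 and Krt13 together were under 80 (3517 and 4098 cells).

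The libraries held 7215 and 9076 barcodes, with 67962712 and 73935792 UMIs. A cell needed 500 detected genes and could have up to 10% of its UMIs from mitochondrial genes, and 821 barcodes were left out for exceeding that share. The libraries had 104 barcodes in common, and no such barcode was an early cell in both. In the early cells as a class, 2 of 4470 genes differed by 1.5-fold or more between the libraries, the transcript AY036118 and Krt6b (107 CPM in library 1 and 67.5 in library 2). A median early cell held 13325 UMIs in library 1 and 10812 in library 2, against 6468 and 5390 in basal cells and 17183 and 14882 in late cells. Doublets were not removed, and 131 and 61 early cells held over 20000 UMIs. The classes therefore differ in depth, and what part the depth has in any difference was not tested except where thinned counts are given.

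The limits cut a continuous range rather than a separate group of cells. Between the basal and the early bound, 28.0% of cells in library 1 and 28.1% in library 2 had Krt4 and Krt13 sums of 80 to 350. Just outside the lower bound, at 300 to 350, lay 136 and 178 cells that met the other limits, and just inside, at 350 to 400, lay 132 and 175. The cornified sum was equally continuous, with 143 and 219 cells at 3 to 5 and 95 and 141 at 5 to 7. The stress limit removed 44 and 64 cells with enough Krt4 and Krt13, and the mitotic limit 16 and 22.

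**Figure D1:**
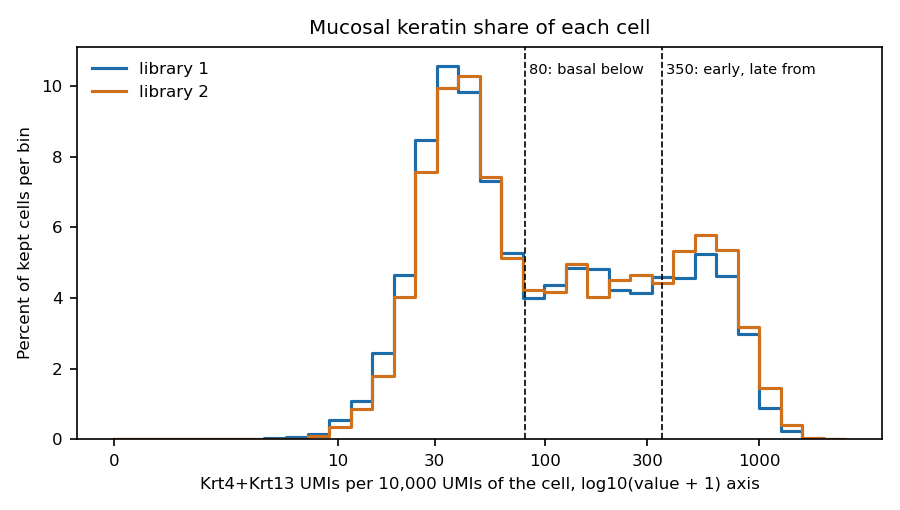
Percent of kept cells (vertical axis) by the sum of Krt4 and Krt13 UMIs per 10000 UMIs of the cell (horizontal axis, log10 of value plus 1), for library 1 (blue) and library 2 (orange), with dashed lines at 80 and 350. A main peak lies below 80 and a second, broader peak above 350, and 28.0% and 28.1% of cells lie between the lines.

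The rule's own genes gave the following values, which chose the cells and are no finding. The median early cell had 538 Krt4 and Krt13 UMIs per 10000 in library 1 and 546 in library 2. Late cells had medians of 700 and 712, and basal cells 36.7 and 38.2. Langerhans-like reference cells, which should lack both keratins and were picked by Cd74, H2-Aa and H2-Ab1, had 21.1 and 24.1 (8 and 26 cells), so the basal value lay less far above these cells than the early value did. The sum of the 6 cornified genes had a median of 1.20 and 1.32 per 10000 in early cells and 14 and 13.3 in late cells, and 27.1% and 28.0% of early cells had none of these UMIs. Within the keratin sum, Krt4 made up 57.5% in library 1 and 59.5% in library 2, against 31.3% and 33.3% in basal cells held to the same stress and mitotic limits.

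Krt13, at chromosome 11, 100117327 to 100121566 in GRCm38, was at 25323 and 24596 CPM in early cells, and the 250 bases before its outer start overlap no annotated exon. The window is shown because this keratin defines the cells. Lor is loricrin, an envelope protein and a gene of the rule, and Cldn4 is a claudin of tight junctions, outside the rule. Both were low in early and high in late cells, and they are shown because their windows hold the AP-1 letters. That these letters stand in them is therefore no finding. The capitals mark letters that a search on both strands found, the KLF-type box CCCCACCC in Krt13 and the AP-1 letters TGACTCA in the other windows, each in its reverse complement where the hit is on the minus strand of the window. Sequences are from RefSeq on GRCm38.p6, 5′ to 3′ on the gene's strand, and end at the base before the start.
Krt13, chr11:100121567-100121816, minus strand: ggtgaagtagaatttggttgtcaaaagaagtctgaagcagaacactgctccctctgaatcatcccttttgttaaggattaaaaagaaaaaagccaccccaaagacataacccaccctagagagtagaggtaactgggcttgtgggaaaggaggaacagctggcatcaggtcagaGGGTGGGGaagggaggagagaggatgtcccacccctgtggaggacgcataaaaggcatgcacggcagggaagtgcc
Lor, chr3:92083143-92083392, minus strand: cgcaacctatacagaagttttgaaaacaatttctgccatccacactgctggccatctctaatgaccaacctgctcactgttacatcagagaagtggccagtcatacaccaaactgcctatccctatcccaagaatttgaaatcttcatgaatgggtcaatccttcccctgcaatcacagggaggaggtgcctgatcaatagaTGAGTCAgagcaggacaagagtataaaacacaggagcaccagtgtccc
Cldn4, chr5:134946935-134947184, minus strand: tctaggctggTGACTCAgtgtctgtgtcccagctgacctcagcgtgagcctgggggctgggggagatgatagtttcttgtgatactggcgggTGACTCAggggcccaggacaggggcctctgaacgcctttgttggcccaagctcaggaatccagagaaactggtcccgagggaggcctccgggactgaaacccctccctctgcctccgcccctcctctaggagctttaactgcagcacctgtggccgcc
The Krt13 letters begin 76 bases before the start, those of Lor 48 bases before it, and those of Cldn4 240 and 158 bases before it. Krt13 has another window, before an inner start and not shown, with the AP-1 letters 183 and 34 bases before that start. No hit overlaps another motif that was searched. The KLF-type letters stand in 10.3% of 27025 genes with such a window, and the AP-1 letters in 5.16%. Among the 12 genes lowest in early against late cells, 3 of 11 with a window held the AP-1 letters (Cldn4, Scel and Sprr1a). Of 322 genes with a window that were higher in early than in basal cells 26 did (8.07%). The share was 3.92% of the 3958 genes with a window among all genes compared. A gene was counted once, for a hit in any of its windows. These letters are a description of the windows, not binding sites.

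In the results that follow, the UMIs of all cells of a class were added up per library and expressed per 1000000 of the class total (CPM). A gene is called higher or lower where its CPM differed by 1.5-fold or more in the same direction in both libraries. The mean of its CPM over the classes compared also had to reach 20. A member of a gene list is called measured where it reached that mean. Members low in both classes compared are thus left out of the counts. There is no test: the libraries share 1 suspension, and the cells were chosen by their RNA. Of 5071 genes compared with basal cells, 421 (8.3%) were higher in early cells and 1309 (25.8%) lower, with a median log2 difference of -0.24. Of 4420 genes compared with late cells, 69 (1.56%) were higher and 132 (2.99%) lower, with a median of 0.04. Scaling by the median ratio of genes in place of totals moved single genes by 0.43 against basal cells and by -0.12 against late cells on the log2 scale and gave 1009 higher and 572 lower against basal cells, and 38 and 224 against late cells.

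Only 7 of 4853 genes (0.144%) were higher in early cells than in both other classes, and 13 (0.268%) lower than in both. The 7 were Prlr, Mt3, Dynap, Nkx2-3, Mgst1, Mycl and Clec11a. Prlr, the prolactin receptor (chromosome 15, 10177238 to 10349180), was at 168 CPM in library 1 and 167 in library 2 in early cells. Basal cells had 70.6 and 70.8 CPM and late cells 32.1 and 43.5. The library values of the classes did not overlap, which largely follows from the 1.5-fold rule that picked the gene. Single cells did, with a median of 1.11 and 1.0 Prlr UMIs per 10000 in early cells and a highest value of 22.8 and 19.2 in basal cells. The log2 difference from late cells was 2.39 (exact conditional 95% interval 2.22 to 2.56) in library 1 and 1.94 (1.80 to 2.07) in library 2, the largest among genes higher than in late cells, and that from basal cells was 1.25 and 1.23.

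Mt3, a metallothionein that binds zinc and copper, was at 1407 and 1237 CPM in early cells, 566 and 509 in basal and 652 and 584 in late cells. Its level in early cells was 2.46 times that of basal and 2.14 times that of late cells. Dynap, the dynactin-associated protein, was at 497 and 573 CPM in early cells, 112 and 117 in basal and 270 and 332 in late cells. Nkx2-3, a homeodomain transcription factor on chromosome 19 (43612325 to 43615892), was at 62.5 and 72.0 CPM, against 30.7 and 32.3 in basal and 36.5 and 35.8 in late cells. For all of these the lower library value of early cells lay above the higher of the other classes, which largely follows from the rule that picked them.

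The other three lay nearer to the bound. Mgst1, a microsomal glutathione S-transferase, was at 844 and 989 CPM in early cells, against 335 and 402 in basal and 518 and 581 in late cells. Mycl, of the MYC family, was at 74.4 and 71.7 CPM, against 39.7 and 37.6 and then 45.8 and 43.8. Clec11a, a secreted C-type lectin, was at 84.5 and 95.7 CPM, against 56.1 and 57.2 and then 41.0 and 50.1. Mgst1 and Mycl no longer passed against late cells under median-ratio scaling (log2 0.61 and 0.58) or with cells over 20000 UMIs left out (0.54 and 0.55), while Prlr ranged from 1.78 to 2.68 over all alternatives.

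These 7 genes were then followed over narrower ranges of the Krt4 and Krt13 sum, in cells that met the other limits of the early cells; the ranges were chosen after the data had been seen. The mean level of Prlr was 82.1 CPM at 0 to 80, 118 at 80 to 200, 168 at 200 to 350, 175 at 350 to 600 and 161 at 600 to 1000, and 37.8 in late cells. Mt3 was at 545, 975, 1106, 1221 and 1453 CPM in the same ranges and at 618 in late cells. The level of Mgst1 was 884 CPM at 200 to 350, 973 at 350 to 600 and 860 at 600 to 1000. Of the 7, 5 had their highest value inside the early range in both libraries, whereas Mycl in both libraries and Clec11a in library 1 were highest at 200 to 350, outside the rule. A high level of these genes is thus shared with the cells just below the Krt4 and Krt13 bound and not with those above the cornified bound.

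**Figure D2:**
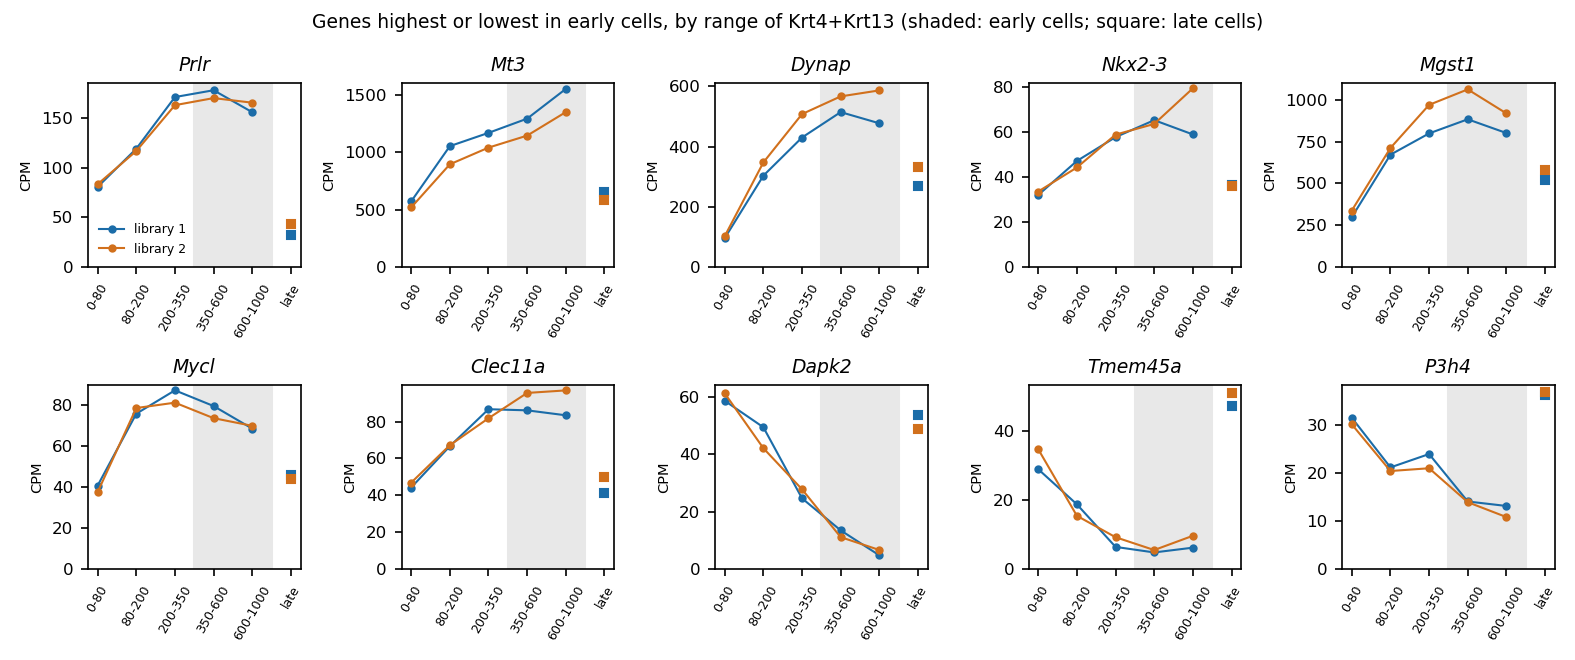
CPM (vertical axis, from 0) in library 1 (blue) and library 2 (orange) of the 7 genes highest and 3 of the genes lowest in early cells, over ranges of Krt4 and Krt13 UMIs per 10000 (horizontal axis); the shaded ranges are early cells and the squares late cells. Prlr stands at 161 to 175 CPM in the shaded ranges and at 37.8 in late cells; Dapk2 is at 5.71 CPM at 600 to 1000 and is at 51.3 in late cells.

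Dapk2, Tmem45a and P3h4 showed the opposite shape, being lower in early cells than in both other classes. Dapk2, a death-associated protein kinase, was at 9.64 and 8.85 CPM in early cells, against 60.9 and 62.9 in basal and 53.6 and 49.0 in late cells. Tmem45a, a transmembrane protein, was at 5.41 and 7.41 CPM, against 30.8 and 35.7 and then 47.1 and 50.8. P3h4, an endoplasmic reticulum protein of collagen hydroxylation, was at 13.7 and 12.6 CPM, against 28.8 and 27.3 and then 36.2 and 37.0. By range, Dapk2 stood at 59.9, 45.8, 26.2, 12.3 and 5.71 CPM from 0 to 1000, lower at every step, and at 51.3 in late cells. The P3h4 difference from basal cells did not pass under median-ratio scaling (log2 -0.67). The other 2 named genes of this kind were the cohesin acetyltransferase Esco2 (1.61 and 2.04 CPM in early, 77.3 and 81.3 in basal, 3.52 and 4.12 in late cells) and the epidermal keratin Krt1 (5.83 and 10.2, 51.1 and 56.9, and 11.1 and 21.2). In basal cells that met the other limits of the early cells Esco2 was at a mean of 4.46 CPM and Krt1 at 9.02, so their basal side rests on cells outside those limits. Esco2 reached the mean of 20 CPM only through its level in basal cells. With the stress and mitotic limits in all classes, 9 of 4791 genes (0.188%) were lower in early cells than in both other classes.

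The 4 proposed marker genes outside the rule, Ada, Rnase1, Slc7a8 and Csrp2, were all higher than in basal cells (4 of 4, median log2 4.53). They were chosen with earlier results of these data known, so this describes their levels and is no support for the class. None of the 4 differed from late cells by the size rule (median -0.03). Ada, the adenosine deaminase of purine salvage (chromosome 2, 163726584 to 163750239), was at 827 and 1079 CPM in early cells, 31.4 and 50.1 in basal and 1191 and 1495 in late cells. Rnase1, a secreted ribonuclease (chromosome 14, 51144998 to 51146785), was at 138 and 145 CPM, against 3.90 and 6.06 in basal and 164 and 182 in late cells. Slc7a8, a transporter of neutral amino acids (chromosome 14, 54722209 to 54781946), was at 48.5 and 44.1 CPM, against 1.87 and 2.30 and then 40.5 and 38.0. Csrp2, a LIM-domain protein (chromosome 10, 110919789 to 110939622), was at 170 and 155 CPM, against 30.4 and 28.5 and then 130 and 125. By the size rule the 4 genes thus differed from basal but not from late cells, and Ada passed as lower than in late cells under median-ratio scaling (log2 -0.62).

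Most other measured members of the markers' own lists were not higher than in basal cells. The same held for all 5071 genes compared, of which 8.3% were higher and 25.8% lower, so these counts describe the members only. In the purine salvage list 1 of 6 measured members was higher than in basal cells, Ada itself, and 3 were lower, Pnp (53.3 CPM in basal and 23.7 in early cells), Adk (134 and 67.3) and Adss (104 and 62.0). Among 6 transporters of amino acids Slc7a8 was the 1 higher, and Slc7a5, Slc38a2, Slc6a6 and Slc7a1 were lower, the taurine transporter Slc6a6 by -3.50 on the log2 scale. Of 6 ribonuclease genes Rnase1 and the inhibitor Rnh1 (235 and 581 CPM) were higher and Rnase4 and Ang lower. Of 8 LIM-domain genes Csrp2 was higher, and Csrp1, Crip1, Pdlim1 and Lmo4 were lower. Under median-ratio scaling Adk, Adss and Ang no longer passed.

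The genes with the largest differences from basal cells were, besides Krt4 and the markers, enzymes, proteases, protease inhibitors and transporters. Serpinb3a and Serpinb12, inhibitors of the ov-serpin family, were at 496 and 583 CPM and at 432 and 464 CPM in early cells, against 22.3 and 32.3 and 21.6 and 26.0 in basal cells. Ephx3, an epoxide hydrolase, was at 65.7 and 72.5 CPM (2.98 and 3.31 in basal cells). The ceramidase Acer1 was at 113 and 108 CPM (6.56 and 5.78), and Elovl4, which elongates fatty acids, at 56.5 and 70.8 (3.94 and 3.15). The membrane protease Tmprss4 was at 56.5 and 52.0 CPM and the ammonium transporter Rhbg at 82.6 and 79.3, each with 3.27 to 5.45 in basal cells. Of these, Serpinb3a, Serpinb12, Ephx3, Acer1 and Elovl4 were lower than in late cells, the serpins most (log2 -1.74 and -1.38).

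All 3 basal keratins were lower than in basal cells (median log2 -2.60). Krt14 was at 505 and 487 CPM in early cells and 8696 and 8828 in basal cells, which is 17.7 times as much. Krt5 was at 521 and 513 CPM, against 3273 and 3017 in basal and 302 and 282 in late cells, so that it was also 1.77 times higher than in late cells. Krt15 was at 850 and 1133 CPM, against 2115 and 2343. Per cell, Krt5 and Krt14 together had a median of 6.01 and 6.46 UMIs per 10000, close to 5.60 and 7.54 in the Langerhans-like reference cells. The median early cell thus held these keratins near the level of cells that should lack them. The upper quartile of early cells was 11.8 in library 1 and 12.2 in library 2, against 7.85 and 17.7 in the reference cells. Above the lower quartile of basal cells held to the stress and mitotic limits lay 4 and 2 early cells. RNA counts of Krt14, Krt16 and Krt17, or of Krt6a and Krt6b, can be shared by reads, since these genes are near-identical in part.

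Of 6 hemidesmosome genes 5 were lower than in basal cells (median -2.70), and none was higher. Itgb4, which encodes the antigen used for the sort, was at 14.1 and 12.3 CPM in early cells (167 and 162 UMIs), 128 and 115 in basal and 9.11 and 9.84 in late cells. Its partner Itga6 was at 41.2 and 40.3 CPM against 307 and 291, and the transmembrane collagen Col17a1 at 24.4 and 26.6 against 346 and 305. The linker Dst was lower by -2.52 and the linker Plec by -0.94 on the log2 scale, and Plec did not pass under median-ratio scaling. Of 5 matrix adhesion genes 4 were lower, among them the laminin chain Lamb3 (3.97 and 4.39 CPM against 61.1 and 57.0) and Itgb1 (-2.51). Against late cells 0 of 5 hemidesmosome genes were called in either direction (median 0.14). The labels put these cells in a gate for surface CD104, and the surface protein was not measured in the files.

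The signalling lists divided. In the Notch pathway, in which receptors cut at the membrane switch on target genes, 4 of 9 measured genes were higher than in basal cells and 1 lower (median 0.40). The receptor Notch3 (chromosome 17, 32120820 to 32166852) was at 41.1 and 32.5 CPM in early cells, 6.05 and 5.13 in basal and 37.1 and 30 in late cells. The target Hes1 was at 396 and 443 CPM against 185 and 213, and the target Nrarp at 124 and 130 against 32.3 and 35.2. Notch1 was the lower member, at 70.0 and 62.2 CPM against 113 and 103, a difference that median-ratio scaling reduced to -0.29. None of 10 Notch genes differed from late cells by the size rule. By range, Notch1 was highest at 80 to 200 (156 CPM) and Notch3 at 200 to 350 (41.7), with 49.6 and 37.1 CPM at 600 to 1000.

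Wnt pathway genes were lower than in basal cells in 8 of 10 and higher in none (median -1.10). The ligands Wnt10a (6.85 and 7.03 CPM against 134 and 140) and Wnt6 (log2 -3.86) were furthest below, followed by the Wnt inhibitor Sfrp1 (-2.89), the ligand carrier Wls (-2.06) and the factor Tcf7l2 (-1.33). In the TGF-β and BMP list 6 of 7 were lower and none higher (median -1.33), with Tgfbr2 at -3.31, Tgfbi at -3.24 and the helix-loop-helix inhibitors Id1, Id2 and Id3 at -0.77, -1.33 and -1.35. Id1 did not pass under median-ratio scaling, and Id3 was higher than in late cells by 0.88. Against late cells 0 of 5 measured Wnt genes were called. Wnt16, a ligand outside the list, was at 29.7 and 31.2 CPM in early cells, 63.9 and 60.8 in basal and 12.0 and 10.4 in late cells.

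Among 18 measured transcription factors of keratinocyte differentiation, 9 were higher and 2 lower than in basal cells (median 0.70). Zfp750 was at 68.9 and 57.4 CPM in early cells, 9.59 and 7.92 in basal and 71.5 and 66.4 in late cells. Grhl1 was at 50 and 48.1 CPM (8.11 and 7.59 in basal cells) and Grhl3 at 62.0 and 60.3 (10.7 and 9.37), and the lower pair comprised Klf3 (-0.70) and Grhl2 (-0.97). Klf4 was at 85.4 and 80.4 CPM, between 44.2 and 45.0 in basal and 175 and 168 in late cells. Klf4 (-1.05) and Grhl3 (-0.62) were the 2 of 17 factors lower than in late cells. In the list of basal and oral factors 4 of 9 were lower than in basal cells and none higher, and its median of -0.23 turned to 0.19 under median-ratio scaling. Trp63, the p63 factor of basal keratinocytes, was at 136 and 140 CPM against 474 and 489.

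**Figure D3:**
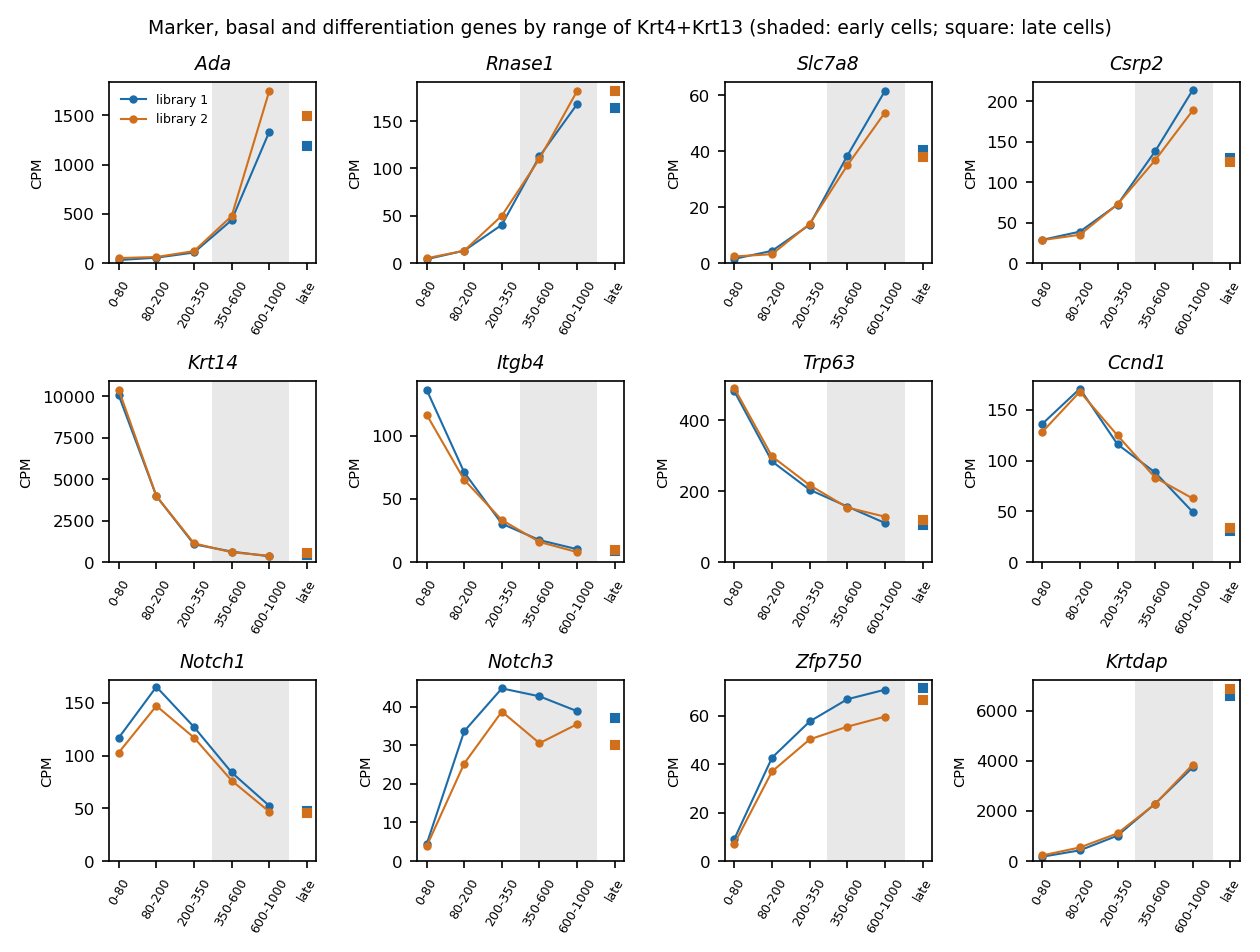
CPM (vertical axis, from 0) of 12 genes in library 1 (blue) and library 2 (orange) over ranges of Krt4 and Krt13 UMIs per 10000 (horizontal axis); the shaded ranges are early cells and the squares late cells. Ada stands at 114 CPM below the bound and at 456 and 1540 in the shaded ranges, Itgb4 goes from 127 to 9.01, and Notch3 and Zfp750 reach 41.7 and 54.0 CPM already at 200 to 350.

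The cell cycle comparison depends on which basal cells are used. The basal class held 1300 and 1710 cells over the mitotic limit that early cells had to stay under, so 0 of 18 mitotic genes outside the rule were higher and 18 lower (median -4.47), and 11 of 11 replication genes were lower (-2.51). With the same stress and mitotic limits set on all classes, 4 of 5 measured mitotic genes were lower (median -1.14). The tubulin gene Tubb4b was the 1 higher (0.69), and 6 of 6 replication genes were lower (-1.21). Of all 4954 genes compared with basal cells under these limits, 407 (8.22%) were higher and 1110 (22.4%) lower. The inhibitor Cdkn1a, p21, was at 345 and 391 CPM in early cells, 51.7 and 58.0 in basal and 455 and 498 in late cells. The cdk inhibitor list had 1 higher and 3 lower of 4, and 2 higher and 1 lower with the limits, where Cdkn2c turned from -1.02 to 0.69 and the median from -1.05 to 0.17. Ccnd2 was at 84.4 and 84.5 CPM against 596 and 569. Ccnd1, the D1 cyclin (chromosome 7, 144929931 to 144939925), was at 71.1 and 72.9 CPM, against 106 and 100 in basal and 30.2 and 33.6 in late cells. It was called higher than in late cells (2.26 times), and lower than in basal cells only with the limits (log2 -0.87, against -0.52 without them).

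The rule kept the sum of 6 cornified genes low, which is no finding, and Krt23 among them was still at 70.6 and 66.5 CPM in early cells, against 16.3 and 16.4 in basal and 749 and 738 in late cells. Of 11 measured envelope genes outside the rule 8 were higher than in basal cells and 1 lower, Ecm1 (median 1.81). The list has 31 genes, and those low in both early and basal cells are not in these counts. Krtdap, a secreted differentiation protein, was at 2945 and 3045 CPM in early cells, 234 and 308 in basal and 6598 and 6880 in late cells. The transglutaminase Tgm3 was at 793 and 753 CPM (72.4 and 69.5 in basal, 1200 and 1212 in late cells), the cystatin Cst6 at 126 and 132 (10.7 and 16, and 297 and 317) and suprabasin, Sbsn, at 611 and 587 (86.3 and 91.3, and 1536 and 1462). Per cell, the list outside the rule had medians of 86.6 and 90.9 UMIs per 10000 in early cells, 11.7 and 13.7 in basal cells under the stress and mitotic limits and 150 and 155 in late cells. Against late cells 12 of 14 measured members were lower and none higher (median -1.29), a comparison whose classes were divided by 6 other genes of the same envelope.

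Some envelope genes outside the rule were low in both basal and early cells. Sprr1a, a cross-linked precursor, was at 36.1 and 32.7 CPM in early cells, 54.2 and 40.7 in basal and 242 and 383 in late cells. Scel, sciellin, was at 5.66 and 7.18 CPM, against 6.56 and 5.49 and then 45.7 and 49.4. Of the rule genes, whose gap the choice of cells set, Cnfn was at 17.2 and 24.1 CPM (461 and 695 in late cells) and Lor at 12.7 and 15.6 (91.2 and 165). The protease inhibitor Spink5 lay between, at 49.2 and 47.2 CPM, against 19.8 and 21.2 in basal and 181 and 213 in late cells.

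Desmosome genes, which join keratinocytes to each other, were higher than in basal cells in 6 of 9 and lower in none (median 1.05). Dsg1a was at 137 and 121 CPM in early cells, 13.5 and 14.5 in basal and 244 and 238 in late cells. Dsc2 was at 256 and 247 CPM, against 63.0 and 57.2 and then 439 and 437, and Dsp, Pkp1, Perp and Jup were higher than in basal cells by 1.05, 1.23, 1.07 and 0.82 on the log2 scale. Dsg1a and Dsc2 were the 2 of 10 lower than in late cells.

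Most measured genes of the lipid lists were also higher in RNA than in basal cells. In the cholesterol pathway 10 of 11 measured genes were higher than in basal cells and none lower (median 1.55). Against late cells 9 of 18 were lower (median -0.67). The list has 24 genes, and the level asked for sets which are measured. Hsd17b7 was at 56.4 and 55.4 CPM in early cells, 7.04 and 7.92 in basal and 50.2 and 51.0 in late cells. Fdps, which makes farnesyl diphosphate (chromosome 3, 89093588 to 89101959), was at 154 and 174 CPM, against 35.9 and 38.1 and then 368 and 392. Msmo1 and Idi1 were higher than in basal cells by 1.53 and 1.61 and lower than in late cells by -1.0 and -0.73. Of 12 barrier lipid genes 8 were higher than in basal cells and 1 lower, the ceramidase Asah1 (30.4 CPM in basal and 12.4 in early cells), and 5 of 12 were lower than in late cells (median -0.42). Fabp5, a fatty acid carrier, was at 13201 and 12916 CPM in early cells, 1660 and 1570 in basal and 12403 and 12345 in late cells.

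**Figure D4:**
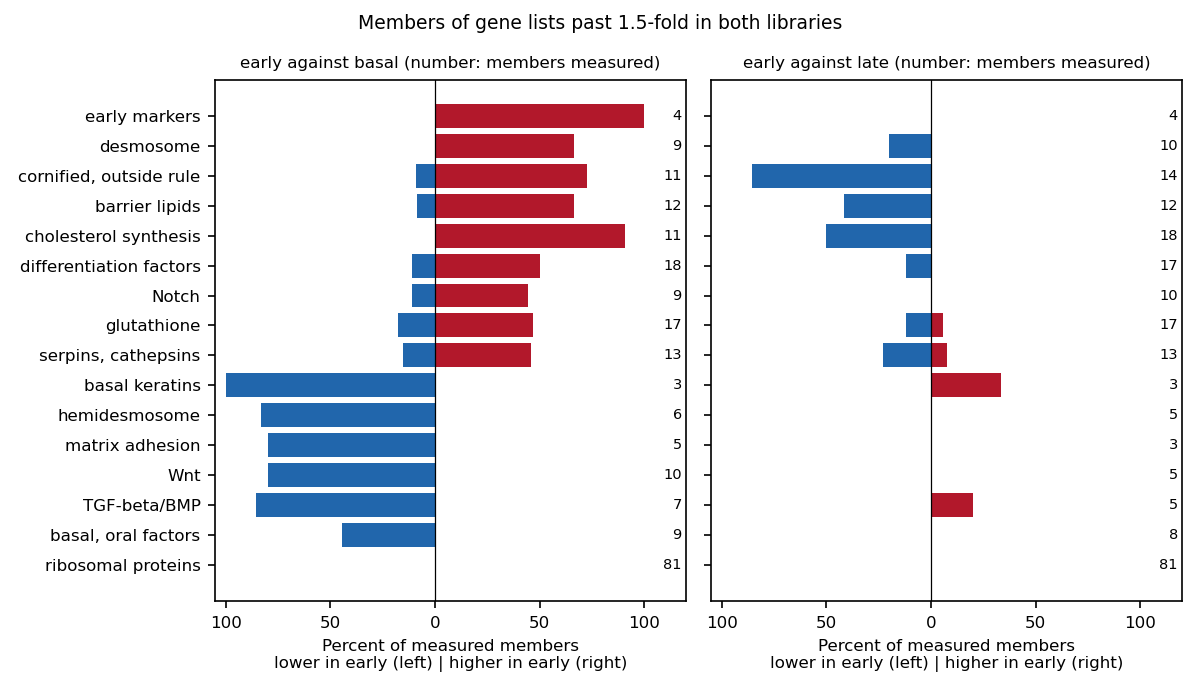
Percent of measured members of 16 gene lists (rows) that were lower (blue, left) or higher (red, right) in early cells by 1.5-fold or more in both libraries, against basal cells (left panel) and late cells (right panel), with the number of members measured at the right edge. Cholesterol genes are 10 of 11 higher against basal cells and 9 of 18 lower against late cells, and hemidesmosome genes are 5 of 6 lower against basal cells and 0 of 5 called against late cells.

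Beside the comparison with basal cells stand the levels of other cell types. The 6 Langerhans cell markers summed to 15.3 and 19.8 CPM in early cells and 353 and 923 in basal cells, the 5 markers of T and NK cells to 4.23 and 3.18 against 28.8 and 33.3, and the 4 glandular markers to 9.04 and 7.56 against 142 and 125. Of 5 fibroblast markers 4 were at 0 in early cells, and Dcn alone gave 5.58 and 7.64 CPM. Of 3 endothelial markers Kdr and Cdh5 were at 0, of 3 melanocyte markers Dct and Mlana were at 0, and of the 3 epidermal markers Krt2 was at 0 while the list summed to 66.1 and 72.7 CPM, mostly Krt10 (a mean of 61.4), against 180 and 225 in basal cells. The 4 hair and sebaceous markers summed to 34.6 and 43.3 CPM, against 143 and 159. Without cells of other types, the class II genes Cd74, H2-Aa and H2-Eb1 were no longer lower in early cells (0.20, 0.27 and 0.14).

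The comparison with late cells shows what else changes beyond the cornified bound. After Prlr, the genes furthest above late cells were Wnt16 (log2 1.44), Serpinb10 (1.40; 55.4 and 49.6 CPM in early, 19.9 and 19.8 in late cells), the peptide hormone gene Cck (1.33; 28.3 and 29.9 against 10.1 and 13.3) and Ccnd1 (1.18). Serpinb10 and Cck were far higher again in basal cells, at 264 and 245 and at 177 and 176 CPM. Thbd, thrombomodulin, was instead highest at 200 to 350 (44.7 CPM), with 9.44 at 0 to 80 and 14.2 in late cells. Ifitm3, an interferon-induced membrane protein, was at 345 and 362 CPM in early cells, 1043 and 1063 in basal and 171 and 186 in late cells.

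At the other end, Slpi, a secreted protease inhibitor, was at 1.94 and 2.27 CPM in early cells (23 and 30 UMIs) and 20.5 and 57.7 in late cells. Ly6g6c, of the Ly6 family, was at 18.8 and 19.1 CPM against 259 and 318, which is 15.1 times as much in late cells. Cldn4 was at 5.16 and 5.52 CPM against 38.2 and 33.9. The keratins Krt6a and Krt6b, which mark stressed or fast-renewing epithelium, were at 464 and 371 and at 107 and 67.5 CPM in early cells, against 1887 and 1773 and 546 and 543 in late cells. Early cells had been limited in stress genes and late cells had not; with the same limits in late cells the counts were 65 higher (1.47%) and 137 lower (3.1%) of 4426. Cells thinned to 3000 UMIs each gave 44 higher genes and leaving out cells over 20000 UMIs gave 32 higher and 82 lower, so the number of genes apart from late cells moved with these settings of depth.

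The early cells were not uniform along the keratin sum. Cells at 600 to 1000 (307 and 421) were set against those at 350 to 600 (544 and 721), a division that uses the rule's own genes; 33 of 4465 genes (0.739%) were higher and 38 (0.851%) lower. Ada was at 436 and 477 CPM in the lower and 1333 and 1747 in the upper range, a log2 difference of 1.74. Serpinb3a (255 and 294, then 805 and 851 CPM) and Serpinb12 (262 and 265, then 637 and 635) followed, and Slc7a8 was higher by 0.65. Rnase1 (0.65) and Csrp2 (0.60) missed the bound in 1 library each. Krt5 was at 757 and 739 CPM in the lower and 220 and 259 in the upper range, and Notch1 at 84.0 and 76.3 and then 52.4 and 46.8. Of 12 envelope genes outside the rule 4 were higher in the upper range, of 5 hemidesmosome genes 3 were lower, and of 16 cholesterol genes none was called. The upper range was also deeper, with medians of 16547 and 12922 UMIs per cell against 12017 and 9436, and its cornified sum was 1.65 and 1.60 against 0.99 and 1.12; their part in these differences was not tested.

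From cell to cell, Chil4 varied most. Chil4, a chitinase-like secreted protein (chromosome 3, 106201490 to 106219507), had a variance 184 and 154 times its mean in early cells thinned to 3000 UMIs, where the median over 2977 genes was 1.0 and the next gene by the lower of both libraries, Krt4, had 11.4 and 12.3. Its sequence is near to that of Chil3, and reads may be divided between them. As a class the early cells had 6797 and 5769 CPM of Chil4, against 1423 and 1114 in basal and 6893 and 7357 in late cells. The median early cell, however, held 2.92 and 3.18 Chil4 UMIs per 10000, near the 2.15 and 2.98 of the Langerhans-like reference cells. A minority carried the rest: 94 early cells in library 1 (11%) and 128 in library 2 (11%) had 100 or more per 10000 and held 91.9% and 90.5% of all Chil4 UMIs of early cells, the highest with 1723 and 1656. The other classes were similarly uneven. The top 10% of cells held 91.1% and 89.4% of Chil4 UMIs in early cells. In late cells they held 94.6% and 94.0%, and in basal cells 87.2% and 80.3%.

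Early cells with 100 or more Chil4 UMIs were compared with the 696 and 935 that had under 10, a division chosen after the data had been seen, in which Chil4 itself is no finding. Of 4441 genes 48 (1.08%) were higher in the cells with much Chil4 and 15 (0.338%) lower. Sprr2a3, an envelope precursor with near-identical copies, was at 516 and 306 CPM against 5.12 and 5.98. Psmb8 of the immunoproteasome was at 34.2 and 55.6 CPM against 8.22 and 10.4, Isg15 at 114 and 114 against 29.8 and 42.6, and B2m, the light chain of MHC class I, at a mean of 1102 against 440. Krt6a was at 1498 and 597 CPM against 325 and 313, the value in library 1 being the further apart. Lower were the glutamine synthetase Glul (11.8 against 36.7 CPM as means), the carboxylesterase Ces1d (74.1 against 177) and the kallikrein Klk13 (15.2 against 30.2). Of the rule's 4 sums 2 were set side by side: their Krt4 and Krt13 sum had medians of 531 and 566 against 537 and 540, and their cornified sum 1.22 and 1.19 against 1.20 and 1.31. Their UMI count was 15336 and 11548 against 13018 and 10689, and its part in these differences was not tested.

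**Figure D5:**
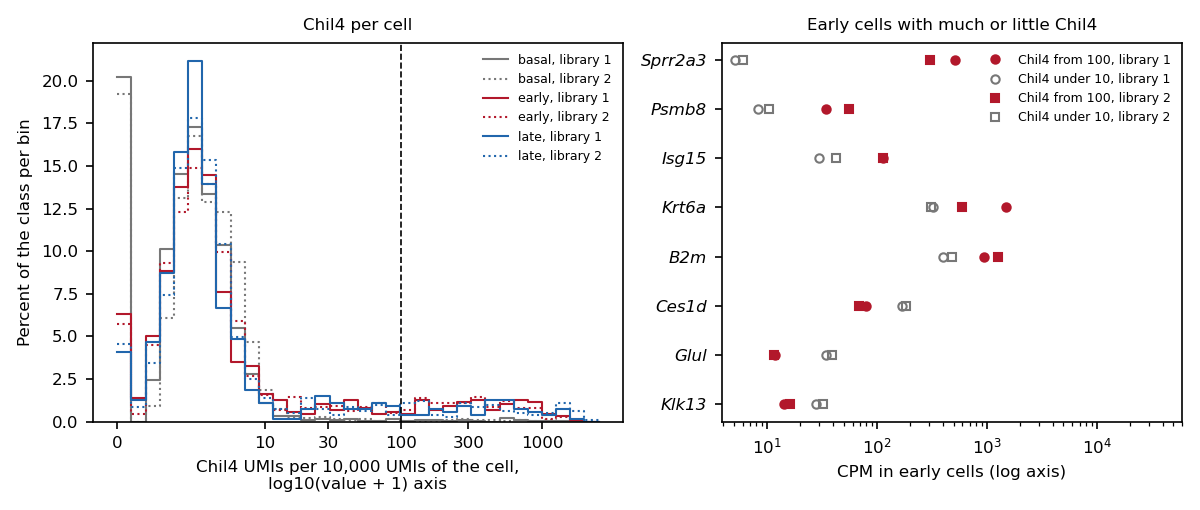
Left, percent of each class (vertical axis) by Chil4 UMIs per 10000 UMIs of the cell (horizontal axis, log10 of value plus 1), with solid lines for library 1, dotted lines for library 2 and a dashed line at 100; right, CPM (log axis) of 8 genes in early cells with Chil4 from 100 (filled) or under 10 (open), circles for library 1 and squares for library 2. In each library 11% of early cells lie from 100 upward, and Sprr2a3 is at 516 and 306 CPM in them against 5.12 and 5.98 in the others.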

How the data were processed

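2 technical-replicate droplet libraries of 1 pooled suspension were measured. The deposited matrices hold UMI counts per gene and barcode; per the submitters' processing notes they were made with Cell Ranger on mm10. The program version, cell calling and the annotation used for counting are not given in the sources used here.

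Barcodes under 500 genes or over 10% mitochondrial UMIs were left out. Classes were set by sums of named genes per 10000 UMIs. UMIs were summed per class and library and scaled to CPM; the log2 difference is the mean of both libraries' log2 ratios, a count of 0 being set to 3 UMIs. Higher or lower means 1.5-fold in both libraries at a mean of 20 CPM. Intervals are exact binomial, 95%. Since the libraries share a suspension, their spread is technical, and no p-value is given. Scrublet (scanpy 1.11.5) marked 1 of 6907 and 0 of 8563 cells, under 0.5%, so it had not worked and no doublet was removed. Named genes were the 12 largest differences each way against each class, up to 15 genes highest and 5 lowest in early cells, the markers, up to 5 examples per list and the 10 most variable genes; further list members and genes of the divisions by range or Chil4 were chosen after their values were seen. Some named genes are not reported here. The members and the gene lists were chosen with earlier results of these data known. Of 27998 gene IDs 27645 matched GENCODE M21 on GRCm38, the source of coordinates. Python 3.11.15, numpy 2.4.6, scipy 1.17.1 and pandas 2.3.3 were used, and the fold rule was checked on simulated counts.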

Additional observations from a re-analysis of the deposited data

Results flagged for a closer look

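Among the barcodes left out for a mitochondrial share over 10%, 33 in library 1 and 52 in library 2 met all 4 sums of the early cells. They were singled out because they carry the defining signal of early cells in barcodes that no comparison uses. With a limit of 5% in place of 10%, the early share was 16.2% of the cells kept.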

How the results depend on the processing

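Of 19 alternative settings 17 were planned and 2 (cells with much Chil4 left out; limits and other cell types together) were chosen after seeing the data. List medians stayed on their side of the 1.5-fold bound in 1428 comparisons with a setting. They passed it newly in 39, no longer passed in 13 and turned in 3. Single genes kept their call, or the lack of one, in 8599, gained a call in 112, lost it in 355 and turned in 16. A turn was counted only for values past the bound in the main setting, so smaller values could change direction uncounted. Counts and shares stayed within their bounds in 207 and moved in 35. No paired analysis was possible because the labels give a single group, with no second group of samples to pair; classes were compared within each library throughout.

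The early share, 13% as the mean of both libraries, was 15% from a keratin sum of 300, 7.73% from 500, 8.65% with the cornified sum under 2, 15.9% with its limit at 10, 16.2% with a mitochondrial limit of 5% and 11.7% without the cells with much Chil4. Median-ratio scaling gave 1009 higher and 572 lower genes against basal cells, 38 and 224 against late cells, and 20 lowest in early cells. With no minimum level the counts were 3270 and 5105, 852 and 860, with 107 highest and 298 lowest, and the interferon list turned to -0.11; with 50 CPM they were 244 and 542, 37 and 78, with 3 lowest. The number lowest was 20 with the 5% limit. Thinned cells gave 44 higher than late cells, and without cells over 20000 UMIs there were 32 higher and 82 lower, with 8 lowest. Without 1 library in turn, 447 to 448 genes were higher and 1420 to 1440 lower against basal cells, 100 to 111 higher and 163 lower against late cells, 7 to 8 highest and 21 to 29 lowest, and the share was 12.4% to 13.6%; fewer conditions apply there, since 1 library alone decides.

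With the stress and mitotic limits in all classes, the cdk inhibitor list turned to 0.17, Cdkn2c to 0.69, Nusap1 to 0.066 and Ube2c to 0.15 against basal cells, and Alox15 to 0.83 and Sprr2a3 to 0.30 against late cells. Without other cell types, Cd74 turned to 0.20, H2-Aa to 0.27 and H2-Eb1 to 0.14. With both changes, the values were 0.17 for cdk inhibitors, 0.11 for Cd74, 0.68 for Cdkn2c, 0.57 for H2-Aa, 0.047 for Nusap1, 0.12 for Ube2c, 0.83 for Alox15 and 0.29 for Sprr2a3, with 8 genes lowest. Without cells with much Chil4, Chil4 against basal cells was -1.01, by construction.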

Other observations

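Of 17 measured genes of glutathione and peroxide metabolism 8 were higher and 3 lower in early than in basal cells (median log2 0.61). The glutathione S-transferase Gstp1 was at a mean of 199 CPM in early and 67.5 in basal cells, and the peroxiredoxin Prdx6 at 1544 and 635. Gpx4 (176 against 409 CPM), Gpx1 (250 against 433) and Gclm (127 against 392) were the lower members. Gsto1 was at 969 CPM in early and 1784 in late cells, and with Gsta4 it was the pair lower than in late cells.

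Calcium-binding genes divided, 4 of 11 higher and 4 lower than in basal cells. S100a14 (1501 against 414 CPM), S100a16 (2503 against 951), Calml3 (2709 against 602) and S100a1 were higher, and S100a6, S100a10, Calm2 (178 against 1380 CPM) and Calm3 were lower. Ribosomal protein genes showed no call in either direction against basal (0 of 81, median 0.03) or late cells (0 of 81, median 0.19). Of 85 respiratory chain genes 2 were lower than in basal cells and none higher (median -0.03). Of 5 measured interferon-response genes 3 were higher than in basal cells, Isg15 (45.5 against 23.1 CPM), Bst2 (32.1 against 18.2) and Ifi35 (53.4 against 32.9), and Ifitm3 was lower.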
